A study of Mus musculus with 4 samples.

Results

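The cytochrome P450 families 1, 2 and 3 were followed in mouse liver as 30 genes, out of 13544 mouse genes with a value on every array. They are all genes whose array annotation gives a symbol that starts with Cyp1, Cyp2 or Cyp3 and goes on with a letter. They fall into 11 subfamilies and were read by 36 probes of 28845 on the array. Cyp2c has 7 members here, Cyp2d 5, Cyp2j 4, Cyp2b and Cyp3a 3 each, Cyp1a and Cyp2a 2 each, and Cyp1b, Cyp2e, Cyp2f and Cyp2g 1 each.

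P450 enzymes of these families are heme proteins of the endoplasmic reticulum that oxidise drugs, toxicants, steroids, bile acids and fatty acids, with electrons passed on by a reductase. Most are made by hepatocytes, and many by the cells around the central vein. Their genes are switched by receptors that sense foreign and internal compounds: the aryl hydrocarbon receptor acts on family 1, CAR acts above all on Cyp2b, and PXR above all on Cyp3a. Several mouse members also differ between the sexes, under the control of growth hormone.

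The mice were males of the inbred strain C57Bl/6J. They were fed an atherogenic diet, alone or with high fat, for 6 or 24 weeks, and their livers were taken. A two-colour oligonucleotide array set the amplified liver RNA of each of these 4 conditions, in Cy5, against liver RNA of mice on standard chow, in Cy3. Chow is labelled 6 or 24 weeks to match, except on the array of the atherogenic diet at 6 weeks, whose chow has no duration in the labels. There was 1 array a condition, no swap of the dyes, and no statement on pooling, on the ages of the mice, on the make-up of the diets or on chow RNA used more than once. Values are log2 ratios of diet over chow. The deposited logarithms were read as base 10 from their spread, so folds rest on that reading, while the p-values do not. The diet without added high fat is called plain below, and a pair of values is given in the order 6 and 24 weeks. A probe gives a ratio and no level, so the abundance of one P450 cannot be set against another here.

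Depth has no counterpart on these arrays, and their number limits the precision. Between 27951 and 28806 probes had a value on an array, and the median over the 13544 genes lay between -0.01 and 0.05. Genes spread with an SD of 0.52 and 0.45 without and 0.35 and 0.37 with high fat. On 3 arrays more probes than their neighbours in value would give sat at a single deposited value, which was 0.58 on the plain 24-week array and -1.35 and -1.28 on the high-fat arrays (log2). Cyp3a11 and 1 of the probes of Cyp2e1 lay there on the plain 24-week array, and no other member probe lay at such a value. The reason for these values was not tested.

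On the plain 6-week array the P450 genes were low as a group. The median of the 30 was -0.47, against 0 for all genes, and 5 of 30 stood above chow (49.99% of all genes). At 24 weeks on the plain diet the median was -0.08 with 12 above chow (55.2% of all genes). With high fat it was -0.09 and 0.03, with 15 and 17 above chow (47.2% and 48.2% of all genes). Both plain counts lay below the share of all genes, and both high-fat counts slightly above it. Lowest of all was Cyp2c50 without high fat, at -1.88 and -1.44, and Cyp2d9 with it, at -0.87 and -0.68. In a count of ratios beyond 2-fold, the plain 6-week array had 0 members higher and 4 lower (4.32% and 1.63% of all genes). The lower ones were Cyp1a2, Cyp2c39, Cyp2c40 and Cyp2c50. With high fat at 6 weeks 2 were higher, Cyp2b9 and Cyp2c55, and 0 lower (0.650% and 1.32%). On the plain diet at 24 weeks Cyp2a5 was higher, and Cyp2c50 and Cyp2f2 were lower (2.15% and 1.28%). With high fat at 24 weeks Cyp2a5, Cyp2b9, Cyp2b19 and Cyp2c29 were higher and 0 lower (0.960% and 1.53%). At the top stood Cyp2c55 at 6 weeks, at 0.90 with the plain and 1.72 with the high-fat diet, Cyp2a5 on the plain 24-week array at 1.39, and Cyp2b9 on the high-fat 24-week array at 1.74. In the plot of members by array the plain 6-week values lie left of the others for many members.

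**Figure D1:**
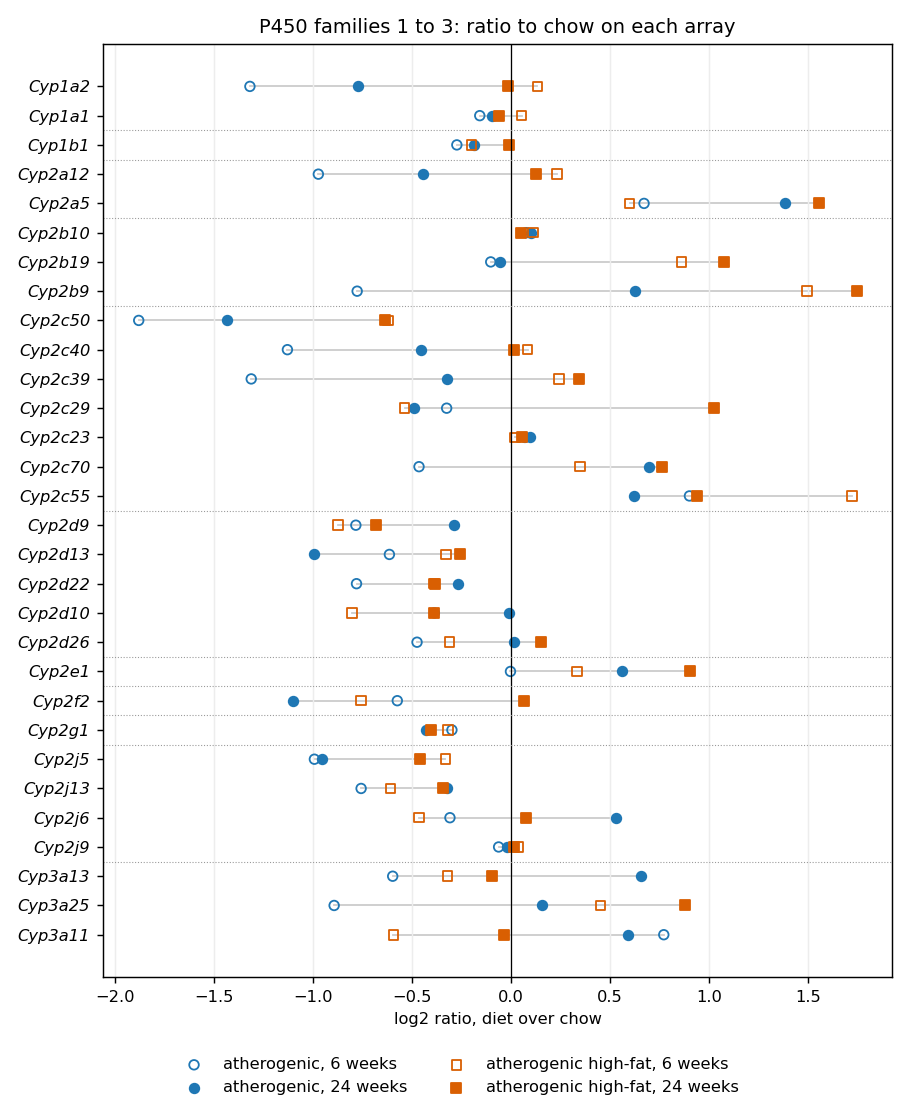
Log2 ratio of diet over chow for each of the 30 P450 genes on the 4 arrays (circles, atherogenic; squares, atherogenic high-fat; open, 6 weeks; filled, 24 weeks), with dotted lines between subfamilies. Cyp2c50 lies left of 0 on every array, Cyp2a5 and Cyp2c55 lie right of it, and the squares of Cyp1a2, Cyp2a12, Cyp2b9, Cyp2b19, Cyp2c39, Cyp2c40 and Cyp3a25 lie right of their circles.

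A first comparison asks which of these genes differed from chow over both diets and both durations. In limma 2 of 30 members rose and 7 fell at an adjusted p of 0.05. Of all genes 6.27% rose and 5.80% fell by the same rule, so the share that rose, 6.67% of members, was near the background and the share that fell, 23.3%, was above it. The genes that rose were Cyp2a5 and Cyp2c55, and those that fell were Cyp2c50, Cyp2d9, Cyp2d13, Cyp2d22, Cyp2g1, Cyp2j5 and Cyp2j13. Below chow on all 4 arrays were 9 of 30 members, or 30% (20.0% of all genes), and above it on all 4 were 4 (20.7% of all genes). The error of this test is the spread between the 4 conditions. Diet RNA was in Cy5 on every array, so a difference from chow and a dye preference of a probe cannot be told apart. With diet as a random block, which lets arrays of the same diet share an error (estimated correlation 0.46), 0 of 30 members passed in limma and 9 had an unadjusted p under 0.05, or 30%, against 20.1% of all genes. Without the plain 24-week array only the fall of Cyp2d9 was called, or 3.33% of members, against 2.10% of all genes. Without the high-fat 6-week, the high-fat 24-week and the plain 6-week array 4, 5 and 7 members passed. These were 13.3%, 16.7% and 23.3% of members, against 5.85%, 5.56% and 8.63% of all genes.

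Next, the high-fat arrays were set against the plain ones. In limma 9 of 30 members were higher with high fat, or 30%, against 3.72% of all genes, and 1 was lower, or 3.33%, against 7.10%. Those higher were Cyp1a2, Cyp2a12, Cyp2b9, Cyp2b19, Cyp2c39, Cyp2c40, Cyp2c50, Cyp2j5 and Cyp3a25, and the lower one was Cyp3a11. High fat stood above plain at both durations in 17 of 30 members (30.8% of all genes) and below at both in 5 (43.6% of all genes). In 13 members both high-fat arrays lay above both plain arrays, against 25.0% of all genes. Below chow on both plain and above it on both high-fat arrays were 5 members, Cyp2a12, Cyp2b19, Cyp2c39, Cyp2c40 and Cyp2j9 (8.48% of all genes), and Cyp3a11 was the sole member with the opposite signs (10.9%). The median difference was 0.24 over the members and -0.07 over all genes. Of all calls for high fat 34.4% were higher, and 22.6% and 23.7% with arrays centred or also scaled; 8 and 10 members were then higher. With probes fitted singly, unnamed ones included, 55.3% of the 4411 probes called were higher, and 11 of 13 members. The test has 1 residual degree of freedom, moderated across genes. Without the term for duration 0 of 13544 genes passed in limma, with 3758 at an unadjusted p under 0.05, 11 of them members (36.7% of members and 27.7% of all genes); with that term 14 members had such a p (32.6% of all genes). Leave-one-out fits had no duration term. Without the plain 6-week, the high-fat 6-week or the high-fat 24-week array 0 genes passed in limma. Members at an unadjusted p under 0.05 were then 14, 8 and 7 of 30, against 32.0%, 9.69% and 10.4% of all genes. Without the plain 24-week array 10 members passed, or 33.3%, and 2565 genes, or 18.9%.

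**Figure D2:**
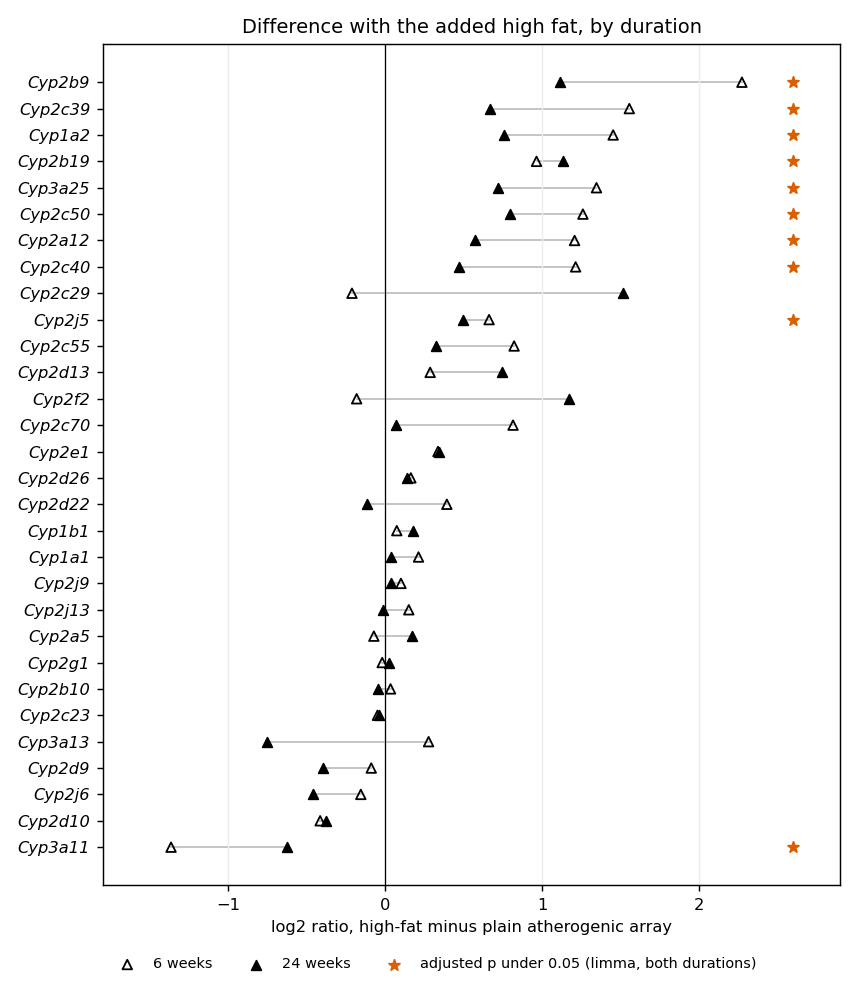
High-fat minus plain log2 ratio for each member at 6 weeks (open triangles) and 24 weeks (filled), sorted by their mean; stars mark an adjusted p under 0.05 in limma. Cyp2b9 tops the plot at 2.27 and 1.12, Cyp3a11 ends it at -1.37 and -0.62, and 8 of the 9 members called higher, all but Cyp2b19, have the larger difference at 6 weeks.

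Family 1 holds the targets of the aryl hydrocarbon receptor. Cyp1a2, a pericentral enzyme that oxidises caffeine and aromatic amines, had ratios of -1.32 and -0.77 on the plain diet, then 0.13 and -0.02 with high fat. The plain arrays were low and the high-fat arrays close to chow, with no overlap, and the difference was 1.10 ± 0.19 (limma SE, 4 arrays; adjusted p = 0.0226). Over all arrays it did not differ from chow (-0.49 ± 0.24, adjusted p = 0.219). Cyp1a1, the neighbour of Cyp1a2 in the genome and the classical inducible target of the receptor, had a mean of 3 probes of -0.16 and -0.10 on the plain diet, then 0.05 and -0.06 with high fat. Both high-fat arrays lay above both plain ones, by 0.12 ± 0.14, which did not pass (adjusted p = 0.576). Its probes disagreed: 1 stood at -0.56 and -0.31 against 0.16 and 0.16, and passed for high fat when probes were fitted singly (0.59 ± 0.15, adjusted p = 0.0411 in limma), while the other two had differences of -0.14 and -0.083 that did not pass. A further 2 probes carry the symbol Cyp1a1 with a gene identifier that is not in the mouse table. They were left out, with means of 0.19 and 0.40. Cyp1b1, which is made mostly outside the hepatocyte, lay between -0.27 and -0.01, while the means of its probes were -0.42 and 0.08.

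Among the Cyp2a genes Cyp2a5, a coumarin and nicotine hydroxylase, rose by 1.05 ± 0.18, a 2.07-fold rise (adjusted p = 0.0181). Its ratio was 0.67 and 1.39 with the plain diet and 0.60 and 1.55 with high fat. It was above chow on every array and higher at 24 weeks than at 6 with either diet, and high fat made little difference (0.05 ± 0.14, adjusted p = 0.841). Cyp2a12, a steroid hydroxylase, had another pattern: -0.97 and -0.45 with the plain diet against 0.23 and 0.13 with high fat. It was below chow without and above chow with high fat, a difference of 0.89 ± 0.18 (adjusted p = 0.0319).

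The Cyp2b genes are the best known targets of CAR, and Cyp2b9 is also known for its higher level in female than in male liver. Cyp2b9 had ratios of -0.78 and 0.63 on the plain diet, then 1.49 and 1.74 with high fat. Only the plain 6-week array was below chow, and both high-fat arrays lay above both plain ones. The difference with high fat, 1.69 ± 0.25 (adjusted p = 0.0201), was the largest of the 30 members, and it was the sole member at least 2-fold higher with high fat at both durations (0.192% of all genes). Cyp2b19, known from skin as an arachidonic acid epoxygenase, stood at -0.10 and -0.06 against 0.86 and 1.07. It sat at chow without high fat and above it with high fat (1.05 ± 0.14, adjusted p = 0.0181). Cyp2b10, the member most used as a readout of CAR, kept within 0.05 and 0.11 on all 4 arrays. Its difference with high fat was -0.01 ± 0.14 (adjusted p = 0.972).

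To show how alike these neighbours are at their starts, the promoters of Cyp2b9 and Cyp2b10 are given as 250 bases before to 50 after the start, from RefSeq (GRCm38.p6), plus strand at chr7:26173159-26173458 and chr7:25897408-25897707. Capitals mark AGGTCA or AGTTCA, the hexamers that nuclear receptors read, or their reverse complements TGACCT and TGAACT.
Cyp2b9: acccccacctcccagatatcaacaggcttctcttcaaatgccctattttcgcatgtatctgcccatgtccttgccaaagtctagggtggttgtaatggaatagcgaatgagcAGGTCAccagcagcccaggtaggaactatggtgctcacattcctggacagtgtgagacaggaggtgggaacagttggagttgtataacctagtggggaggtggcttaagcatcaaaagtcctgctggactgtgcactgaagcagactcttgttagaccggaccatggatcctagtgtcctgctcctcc
Cyp2b10: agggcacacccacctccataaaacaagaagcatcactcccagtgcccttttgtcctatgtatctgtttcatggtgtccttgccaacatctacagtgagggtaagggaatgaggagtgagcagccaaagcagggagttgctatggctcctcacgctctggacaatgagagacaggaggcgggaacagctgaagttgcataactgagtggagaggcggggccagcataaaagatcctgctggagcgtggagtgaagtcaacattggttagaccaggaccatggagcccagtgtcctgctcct
Of 289 aligned bases 223 were the same, 77.2%. The promoter of Cyp2b9 holds 1 AGGTCA and that of Cyp2b10 holds 0 hexamers of either kind, which says nothing of binding further away or of looser sites.

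Cyp2c genes encode epoxygenases of arachidonic and linoleic acid that also clear drugs and steroids. Cyp2c50 fell by 1.14 ± 0.22 over all arrays (adjusted p = 0.0257). Its ratio was -1.88 and -1.44 with the plain diet and -0.62 and -0.64 with high fat. It was below chow on every array, and less so with high fat, by 1.03 ± 0.16 (adjusted p = 0.0208). Cyp2c39, a retinoic acid hydroxylase, stood at -1.31 and -0.32 against 0.24 and 0.34, and Cyp2c40, which acts on arachidonic acid, at -1.13 and -0.46 against 0.08 and 0.02. In both the plain arrays were low and the high-fat arrays at or above chow, with differences of 1.11 ± 0.21 (adjusted p = 0.0287) and 0.84 ± 0.19 (adjusted p = 0.0403).

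Cyp2c55, a P450 known from the gut and from induction in liver, rose by 1.04 ± 0.18 (adjusted p = 0.017). It stood at 0.90 and 0.62 with the plain and at 1.72 and 0.94 with the high-fat diet, so every array was above chow and the high-fat 6-week array highest. With high fat it was higher by 0.57 ± 0.17, which did not pass (adjusted p = 0.0656). Cyp2c29, an abundant hepatocyte member, was below chow on 3 arrays, between -0.54 and -0.33, and at 1.02 on the high-fat 24-week array alone. Cyp2c70, which hydroxylates bile acids to the muricholic acids of mice, was at -0.47 on the plain 6-week array, while the other arrays gave 0.35 to 0.76. Cyp2c23 lay between 0.02 and 0.09. Of the 7 Cyp2c genes 5 were higher with high fat at both durations, and 3 of them passed.

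Cyp2d genes, relatives of the human debrisoquine hydroxylase, lay mostly below chow. Their medians were -0.61 and -0.27 with the plain diet and -0.39 on both high-fat arrays, and 4 of 5 were below chow on all arrays. Cyp2d9, a testosterone hydroxylase higher in male than in female liver, had ratios of -0.78 and -0.29 on the plain diet, then -0.87 and -0.68 with high fat. All arrays were below chow, a fall of 0.66 ± 0.11 (adjusted p = 0.0187), while the difference with high fat did not pass (-0.24 ± 0.15, adjusted p = 0.295). Cyp2d13 fell by 0.55 ± 0.14 (adjusted p = 0.0482) and Cyp2d22 by 0.46 ± 0.11 (adjusted p = 0.0414). Cyp2d13 lay at the threshold: with arrays centred its fall was 0.54 at an adjusted p of 0.0509. It also missed the threshold with robust eBayes, with probes fitted singly and without any 1 array. Cyp2d22 too missed it whichever array was left out. Cyp2d26, between -0.48 and 0.15, and Cyp2d10, between -0.80 and -0.01, did not pass. The 3 probes of Cyp2d10 disagreed: on the plain arrays 1 stood at 0.34 and 0.52, 1 at -1.18 and -0.74, and 1 at -0.32 and 0.19. None of the 5 genes was called for high fat, while the first of these Cyp2d10 probes, fitted singly, was lower by 1.14 (adjusted p = 0.0181).

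Cyp2e1, the ethanol- and fat-inducible enzyme of pericentral hepatocytes, had ratios of -0.003 and 0.56 on the plain diet, then 0.33 and 0.91 with high fat. It was at chow on the plain 6-week array and above it on the others, but its mean, 0.45 ± 0.15, did not pass (adjusted p = 0.0995). With high fat it was higher by 0.34 ± 0.14, which did not pass (adjusted p = 0.138). Its 2 probes gave differences of 0.14 and 0.54, and the second passed when fitted singly (adjusted p = 0.0445 in limma). The first is the probe at the value many probes share. Cyp2f2, a mark of periportal hepatocytes, was below chow on 3 arrays, at -0.57 and -1.10 with the plain diet and -0.76 with high fat at 6 weeks, and at 0.07 on the high-fat 24-week array. Its fall did not pass (-0.59 ± 0.18, adjusted p = 0.083). Cyp2g1, an enzyme of olfactory mucosa, fell by 0.36 ± 0.08 (adjusted p = 0.0334) and varied little, from -0.43 to -0.30. Its call was lost whichever array was left out, and a dye preference of its probe was not tested.

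Cyp2j genes encode epoxygenases of arachidonic acid. Cyp2j5, the member of liver and kidney, had ratios of -0.99 and -0.95 on the plain diet, then -0.33 and -0.46 with high fat. It was below chow on every array (a fall of 0.68 ± 0.14, adjusted p = 0.0274) and higher with high fat by 0.58 ± 0.14 (adjusted p = 0.0455). With arrays centred that difference was 0.52 at an adjusted p of 0.055, and with arrays also scaled 0.24 at 0.193. Cyp2j13 fell by 0.51 ± 0.10 (adjusted p = 0.0286), from -0.76 to -0.33 over the arrays. The call of Cyp2j13 was lost whichever array was left out. Cyp2j9, best known from brain, stayed within -0.06 and 0.04. Cyp2j6 stood below chow at 6 weeks, at -0.31 and -0.47 with the plain and the high-fat diet, and above it at 24 weeks, at 0.53 and 0.07, and did not pass for duration (adjusted p = 0.294).

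Cyp3a11, the main mouse counterpart of the drug-metabolising human CYP3A4 and the classical PXR target, had ratios of 0.77 and 0.59 on the plain diet, then -0.59 and -0.04 with high fat. The plain arrays were above and the high-fat arrays below chow, a difference of -0.99 ± 0.19 (adjusted p = 0.0291). Its value on the plain 24-week array is the one many probes share, so the size there cannot be read, and it has no other probe. Without the plain 24-week array, and with no duration term, the difference was -1.09, no smaller, at an adjusted p of 0.0519. Cyp3a25, its neighbour with no coding gene between, moved the other way: -0.89 and 0.16 with the plain diet, and 0.45 and 0.88 with high fat. Both high-fat arrays were above both plain arrays, by 1.03 ± 0.18 (adjusted p = 0.0237). Cyp3a13 had no common direction, at -0.60 and 0.65 with the plain diet and -0.32 and -0.10 with high fat.

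The promoters of these neighbours, which differed in opposite directions with high fat, are shown for comparison, from RefSeq (GRCm38.p6), minus strand at chr5:145879805-145880104 and chr5:146009569-146009868, with capitals for the same hexamers.
Cyp3a11: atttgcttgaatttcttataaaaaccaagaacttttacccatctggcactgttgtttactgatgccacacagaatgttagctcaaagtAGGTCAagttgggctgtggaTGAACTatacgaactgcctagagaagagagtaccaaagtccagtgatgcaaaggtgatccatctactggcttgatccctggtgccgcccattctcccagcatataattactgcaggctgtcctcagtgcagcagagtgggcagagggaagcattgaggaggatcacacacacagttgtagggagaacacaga
Cyp3a25: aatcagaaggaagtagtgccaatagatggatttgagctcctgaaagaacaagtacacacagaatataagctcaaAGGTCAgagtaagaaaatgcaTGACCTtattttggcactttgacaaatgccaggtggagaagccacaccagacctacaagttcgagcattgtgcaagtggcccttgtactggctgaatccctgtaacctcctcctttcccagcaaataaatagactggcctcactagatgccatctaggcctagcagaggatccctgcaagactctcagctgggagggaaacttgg
Of 274 aligned bases 172 were the same, 62.8%, against 57.1% between Cyp2b9 and Cyp3a11. Each of the Cyp3a promoters holds 2 of the hexamers. RefSeq promoters were found for 26 of the 30 members. A member was counted by its first listed promoter, while the background takes all 32851 listed ones, so the shares are not fully like for like. On either strand AGGTCA stands in 10 of these 26, or 38.5%, and in 16.3% of all 32851 promoters of this length; in the 9 members higher with high fat it stands in 5. AGTTCA stands in 3 of 26 (14% of all promoters), and GCGTG, the core that the aryl hydrocarbon receptor reads, in 5 of 26 (32.4%), 0 of them among those 9. TTCNNNGAA, read by STAT5, stands in 0 of 26 (8.3%). TATAAA stands in 14 of 26 (13.6%). The 5 motifs were counted apart, and a match may overlap another. A match is a description of these letters and not a site.

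Set side by side, the subfamilies differed in where their medians lay. Cyp2b medians were -0.10 and 0.10 with the plain diet and 0.86 and 1.07 with high fat, and Cyp2c medians -0.47 and -0.32 against 0.08 and 0.34. Both were lower without than with high fat. With 3 Cyp2b genes the median is the value of 1 gene. On both high-fat arrays it is that of Cyp2b19, while Cyp2b10 stood at 0.11 and 0.05 there. Cyp2j medians were -0.53 and -0.17 against -0.40 and -0.16, and Cyp3a medians -0.60 and 0.59 against -0.32 and -0.04. The Cyp3a median of 0.59 is the plain 24-week value of Cyp3a11, which many probes share, so its size cannot be read. Called higher with high fat were 2 of 3 Cyp2b, 3 of 7 Cyp2c, 1 of 2 Cyp1a, 1 of 2 Cyp2a, 1 of 4 Cyp2j, 1 of 3 Cyp3a and 0 of 5 Cyp2d genes. Called lower than chow were 3 of 5 Cyp2d, 2 of 4 Cyp2j, 1 of 7 Cyp2c, 1 of 1 Cyp2g and 0 of 3 Cyp2b and Cyp3a genes each. Of all genes 3.72% were called higher with high fat and 5.80% lower than chow. The difference between subfamilies was not tested: their members share sequence and are no replicates, and with 2 arrays against 2 an exact permutation test cannot go below p = 0.333.

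**Figure D3:**
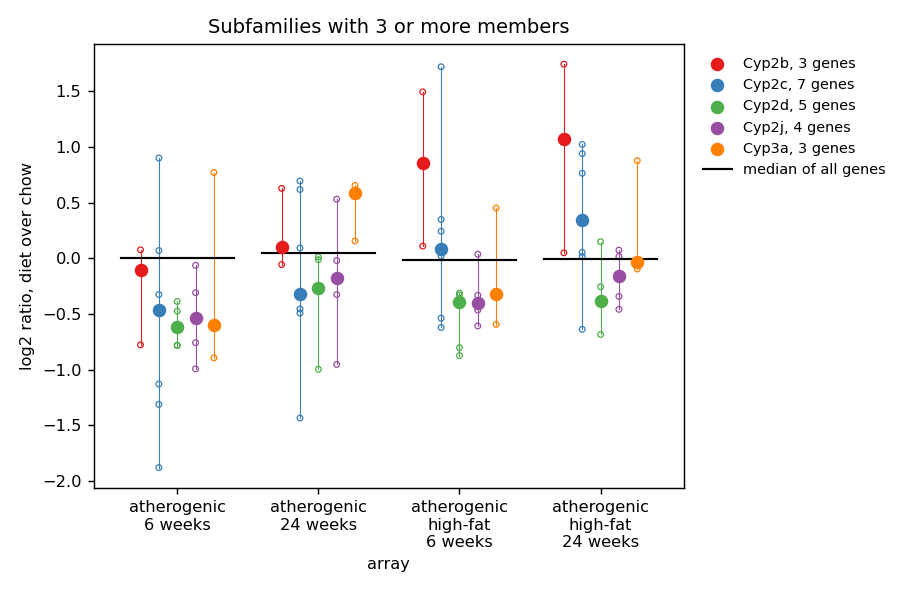
Log2 ratio of diet over chow for the 5 subfamilies with 3 or more members on each array; large points are medians, small open points single genes, vertical lines the range and black bars the median of all genes. Cyp2b medians are 0.86 and 1.07 on the high-fat arrays, both the values of Cyp2b19. Cyp2d medians lie below the bar on all 4 arrays. The Cyp3a median on the plain 24-week array is a Cyp3a11 value that many probes share.

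Of the members, 10 pairs lie side by side in the genome with no coding gene between them. In 7 of the 10 pairs both mean ratios had the same sign, and in 8 of 10 both high-fat differences did. The pairs of Cyp2g1 with Cyp2b19 and with Cyp2a5 are among these 8, though the difference of Cyp2g1 was only 0.0017. The share for pairs that are not neighbours was not computed, so the counts show no link between neighbours. Cyp2d10 and Cyp2d9 were both below chow on all arrays and lower with high fat at both durations, though the probes of Cyp2d10 disagreed. Cyp2c50 and Cyp2c70 stood on average at -1.14 and 0.34, while both were higher with high fat at both durations. Cyp3a11 and Cyp3a25, and Cyp2j6 and Cyp2j9, were the pairs with opposite high-fat differences. P450 genes of a subfamily are close in sequence, and the probe sequences were not used here, so hybridisation of a transcript to the probe of a relative was not tested.

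**Figure D4:**
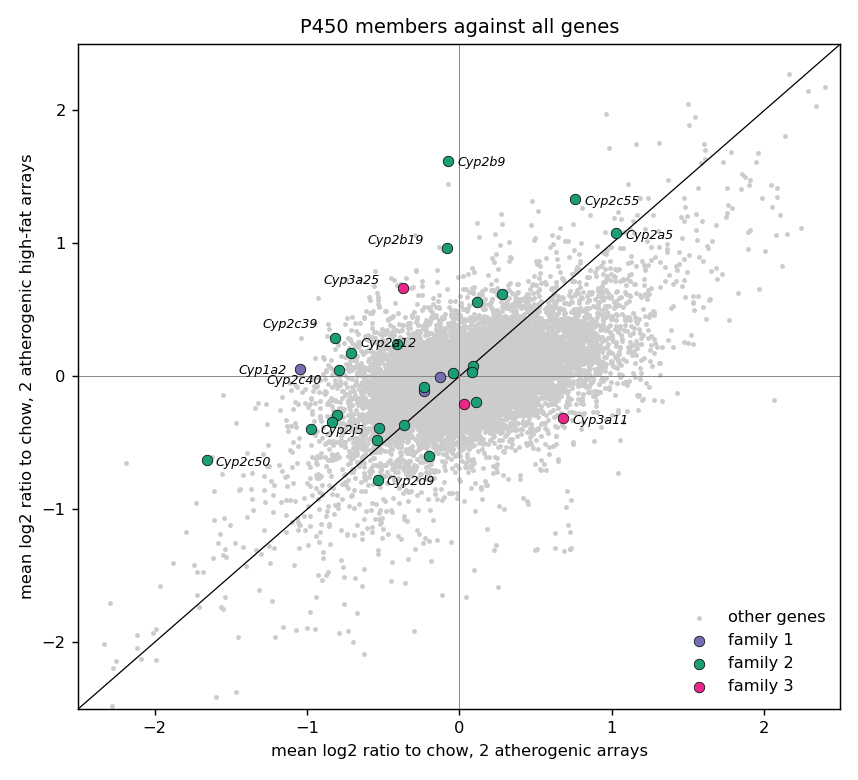
Mean log2 ratio to chow on the 2 plain arrays (horizontal) and the 2 high-fat arrays (vertical) for P450 members by family and for all other genes in grey; 18 genes lie beyond the axes, which end at 2.5. Members above the diagonal, among them Cyp2b9, Cyp2b19, Cyp3a25 and Cyp1a2, are higher with high fat, and Cyp3a11 lies below it.

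Duration was the third comparison. In limma 0 of 13544 genes passed for 24 against 6 weeks. At an unadjusted p under 0.05 there were 1328 genes, 9.81%, and 12 of the 30 members, or 40%. At 24 weeks 16 members were higher with both diets (30.6% of all genes) and 2 lower with both, Cyp2c55 and Cyp2g1 (27.2% of all genes). In 10 members both 24-week arrays lay above both 6-week arrays (13.9% of all genes). Cyp2a5 had a difference of 0.84 ± 0.14 (adjusted p = 0.229), Cyp2b9 0.83 ± 0.25 (adjusted p = 0.395), Cyp2c70 0.79 ± 0.19 and Cyp2e1 0.57 ± 0.14 (adjusted p = 0.359 each), so no member can be said to have changed with duration. Without the high-fat 6-week array, and without the high-fat term, Cyp2b9 passed, with a difference of 1.96.

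Of 14 listed receptors that switch these genes, and their partners, 10 were measured, and none passed for diet over chow, high fat or duration. Ahr, the aryl hydrocarbon receptor, had ratios of 0.13 and 0.23 on the plain diet, then -0.10 and -0.07 with high fat. Nr1i2, which encodes PXR, was above chow on all arrays, between 0.12 and 0.38 (0.21 ± 0.09, adjusted p = 0.158). Nr1i3, which encodes CAR, had ratios of -0.56 and -0.81 on the plain diet, then 0.14 and -0.42 with high fat. Its plain arrays were below its high-fat arrays, by 0.55 ± 0.15, and the difference did not pass (adjusted p = 0.0566).

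Genes that supply heme and electrons were listed next, 13 of 15 measured; Por, the reductase, was not analysed here. None passed against chow, and 3 were higher and 1 lower with high fat (3.72% and 7.10% of all genes). Alas1, the rate-limiting enzyme of heme synthesis, had ratios of -0.55 and -0.67 on the plain diet, then 0.22 and 0.77 with high fat. It was below chow without and above chow with high fat, by 1.11 ± 0.18 (adjusted p = 0.0222). Ephx1, the epoxide hydrolase that works beside P450 enzymes, was higher with high fat by 0.95 ± 0.14 (adjusted p = 0.0201), and Pgrmc1, a heme-binding partner of P450 enzymes, by 0.69 ± 0.15 (adjusted p = 0.0343). Cyb5a, which encodes cytochrome b5, was lower by 0.90 ± 0.14 (adjusted p = 0.0205), at 0.44 and 0.59 against -0.43 and -0.34. The plain 24-week value of Cyb5a is one that many probes share, so the size there cannot be read.

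**Figure D5:**
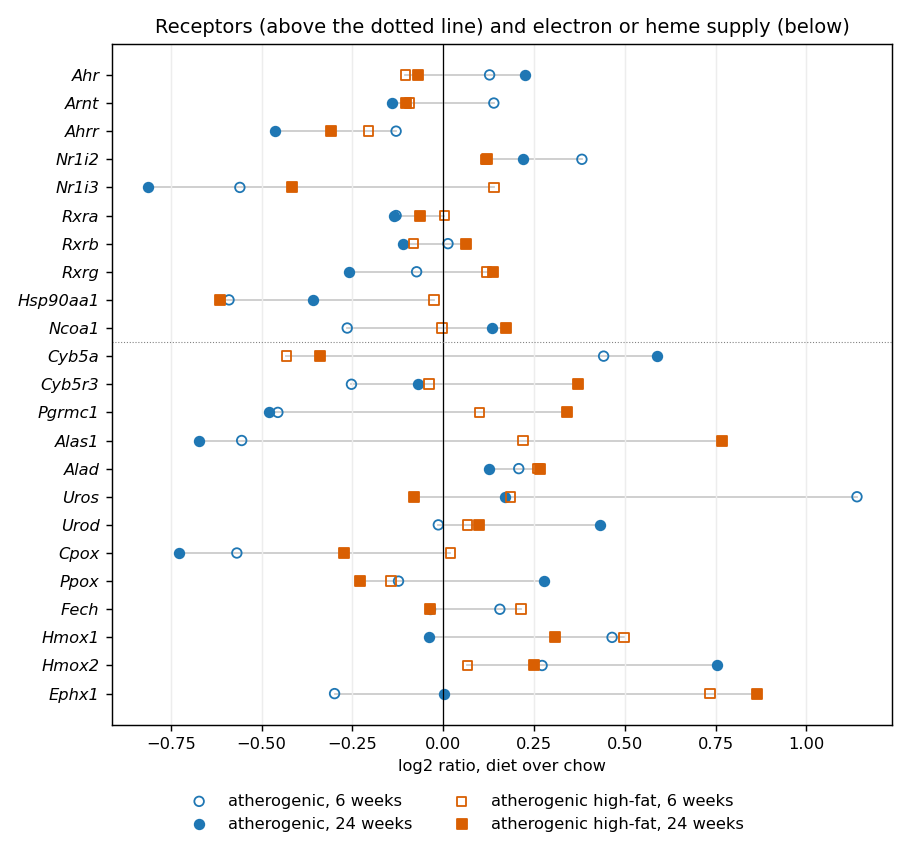
Log2 ratio of diet over chow on each array for the measured receptors and partners (above the dotted line) and the genes of electron and heme supply (below), with symbols as for the members. Alas1, Ephx1 and Pgrmc1 have both squares right of both circles, and Cyb5a has them left.

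Of 27 listed targets of these receptors outside the P450 genes 20 were measured. Against chow 4 rose, Aldh3a1, Gsta1, Gsta2 and Slco1a4, and Gstp1 fell (6.27% and 5.80% of all genes). With high fat Ugt1a1, which conjugates bilirubin, was higher by 0.99 ± 0.25 (adjusted p = 0.0479), Aldh1a1, which oxidises retinal, by 0.93 ± 0.15 (adjusted p = 0.0217), and the sulfotransferase Sult1d1 was lower by 0.84 ± 0.18 (adjusted p = 0.0362). P450 genes of the other families, 28 of 40 measured, held 2 that rose and 10 that fell against chow (6.27% and 5.80% of all genes). With high fat 1 was higher and 3 were lower (3.72% and 7.10% of all genes). The fallen genes included Cyp7a1, Cyp7b1 and Cyp8b1 of bile acid synthesis and Cyp4a10, Cyp4a12a and Cyp4a14 of fatty acid hydroxylation. The gene higher with high fat was Cyp8b1, and Cyp4b1, Cyp17a1 and Tbxas1 were lower.

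The 16 measured hepatocyte markers had medians of 0.06 and 0.39 without and -0.88 and -0.46 with high fat. Of these 10 were lower with high fat and 1, Fga, was higher (7.10% and 3.72% of all genes). Of the P450 members 1 was lower and 9 were higher. Some marker values are ones that many probes share, so their sizes cannot be read. They include Ttr on both high-fat arrays and the plain 24-week array, and Trf and Ahsg on the plain 24-week array. Medians of 18 macrophage markers were 0.99 and 0.75 with the plain diet and 0.70 and 0.64 with high fat, and single markers ranged from -2.38 to 3.37; 11 rose and Vsig4 fell. The 9 neutrophil markers had medians of 0.82 and 1.15 against 0.04 and 0.17, and single markers ranged from -0.73 to 3.24. S100a8, S100a9 and Lcn2 rose against chow, with 1.26 to 2.98 on the high-fat arrays, and Elane fell. The 7 bile duct markers had medians of 0.25 and 0.60 against -0.03 and 0.06. Single ones ranged from -0.69 to 2.30, and Krt23 rose. Camp, Ngp and Krt19 were lower with high fat. Markers of stellate cells, 10 measured, had medians of 0.47 and 0.68 against 0.44 and 0.31; 6 rose against chow, among them the collagen genes Col1a1, Col1a2 and Col3a1, and Pdgfrb fell. For 13 lymphocyte markers the medians were 0.25 and 0.20 against 0.07 and 0.19, and 3 rose. Beside these counts against chow, 6.27% of all genes rose and 5.80% fell. The pericentral list shares 6 genes and the periportal list 1 with the P450 members. Without them the medians of 12 pericentral genes lay between -0.39 and -0.19, and those of 10 periportal genes between -0.26 and 0.19. Fewer hepatocytes and less P450 RNA per hepatocyte cannot be told apart in whole liver, and the part of these shifts in the P450 values was not tested.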

How the data were processed

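The arrays were of the type AceGene Mouse Oligo Chip 30K, with amplified RNA of diet-fed mice in Cy5 and of chow-fed mice in Cy3, per the labels and the design text. The authors read spots with GenePix Pro 4.1 and normalized them by LOWESS in GeneSpring 7.2, per the design text; LOWESS cannot remove the dye preference of a single probe. The deposited values are signed log10 ratios, where base, direction and centring are not stated: the base was read from the spread and the direction from the dyes. Column medians were -0.019 and -0.005 on the plain and 0.006 and 0.006 on the high-fat arrays. How background was subtracted and spots were filtered is not stated.

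Values were turned to log2 and used as deposited. Probes without a value on all arrays were left out (975 of 28845). Of all probes 17637 named 1 symbol, 64 several, and 11144 are unnamed here. Symbols were taken through gene identifiers from RefSeq (GRCm38.p6), which did not match 252 probes, and all 30 members matched. A gene is the mean of its probes. limma 3.58.1 in R 4.3.3 (lmFit, eBayes, two-sided, Benjamini-Hochberg over 13544 genes) tested the mean of 4 arrays against 0, and high fat and duration as terms of an additive model. As each condition has 1 array, the error in every p-value is that between conditions and holds no spread of animals. The fits were tested on simulated data.

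The rule for named genes was: Cyp2b9, Cyp2c39, Cyp1a2, Cyp3a11 and Cyp2a5; members past an adjusted p of 0.05 in any test; the members with the highest and lowest mean ratio in subfamilies of 3 or more; receptors, electron donors and heme genes that passed, and Ahr, Nr1i2, Nr1i3 and Por; and members whose probe means differ by over 1 log2 unit, of which there were 0. The other members are described so that all 30 are accounted for, and other listed genes were named after their values were seen. Members and lists were chosen with earlier results of these data known. Alternatives covered scaling, gene summary, filters, eBayes, designs, thresholds and each array left out.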

Additional observations from a re-analysis of the deposited data

Results flagged for a closer look

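Members whose response to the diet differed between the plain and the high-fat diet, by the high-fat term in limma, were Cyp2b9 (1.69, high fat minus plain, log2), Cyp2c39 (1.11), Cyp1a2 (1.10), Cyp2b19 (1.05), Cyp3a25 (1.03), Cyp2c50 (1.03), Cyp2a12 (0.89), Cyp2c40 (0.84), Cyp2j5 (0.58) and Cyp3a11 (-0.99). Cyp2j9 had opposite signs on the plain and the high-fat arrays, with a difference of 0.068 that did not pass (adjusted p = 0.759). Between 6 and 24 weeks the signs were opposite for Cyp2d26, with a difference of 0.48, and for Cyp2j6, with 0.69, and neither passed in limma (adjusted p = 0.384 and 0.294).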

How the results depend on the processing

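The count of genes called for diet over chow was 1634. It was 2896 at an adjusted p of 0.1, 2880 of 27870 probes fitted singly, 5132 with diet and duration as additive terms, 4447 with duration and 403 with diet as a random block, and 284 to 1169 without each array. Member calls went from 9 to 17, 14 and 0 with the additive, duration-block and diet-block designs. These were 56.7%, 46.7% and 0% of members, against 37.9%, 32.8% and 2.98% of all genes. The estimated correlation was -0.47 for the duration block and 0.46 for the diet block, and a negative one lowers the error of the mean. Without each array between 1 and 7 members were called. For high fat the 1466 calls became 3177 at 0.1, 4411 of 27870 probes fitted singly, 2595 with arrays scaled, 0 without the duration term and 0 to 2565 without each array; the 10 member calls became 0 without that term and 0 to 10 without each array. These last fits have no duration term and 1 residual degree of freedom. For duration 10 genes passed with arrays scaled, and 0 to 79 genes and 0 to 1 members without each array. Of the 10 members called for high fat 9 were kept with arrays centred and 9 with arrays scaled, Cyp2j5 being lost, and 4 were gained with scaling (Cyp2c55, Cyp2d9, Cyp2d10 and Cyp2e1). Without probes at repeated values Cyp3a11 has no probe, and Cyp2e1 was gained for high fat.

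With scaling the high-fat difference of the subfamily medians moved from 0.97 to 1.17 for Cyp2b, from 0.05 to -0.19 for Cyp2d and from 0.07 to -0.13 for Cyp2j, so the direction for Cyp2d and Cyp2j is not settled. Reversed signs, all of values that did not pass in the fits as reported, were these: Cyp1a1 against chow at 0.078 with its other 2 probes counted (an alternative chosen after seeing the data), Cyp2a5 for high fat at -0.012 with arrays centred, and values without 1 array. These were, in lowest and highest value, Cyp1a2 for duration (-0.53 and 0.93), Cyp2a5 for high fat (-0.43 and 0.53), Cyp2b9 for duration (-0.31 and 1.96), Cyp2c39 against chow (-0.46 and 0.087) and for duration (-0.23 and 1.32), and Cyp3a11 against chow (-0.014 and 0.44) and for duration (-0.49 and 0.87). The causes were not tested. The additive fit compares arrays within each duration, and the fit with no duration term is the one without that pairing; by replicate number no paired analysis was possible because the labels give no replicate numbers and each condition has 1 array.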
